A study of Mus musculus with 6 samples.

Results

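The 8 genes described here belong to hepatic fatty acid oxidation and were followed through a single-cell RNA sequencing study of mouse liver: Cpt1a, Cpt2, Acadm, Acadl, Hadha, Ehhadh, Cyp4a10 and Cyp4a14. They are known target enzymes of the nuclear receptor PPAR-alpha and were chosen by name, not by their values. All 8 of the 8 were among the 16623 genes of the deposited table. Their working name also mentions ketogenesis, but none of the 8 is a ketogenic enzyme, so ketogenic genes are given from the wider pathway list at the end. The study profiled livers of 3 WT and 3 SIRT7 KO (SIRT7-/-) mice, all 5 to 6 months old. SIRT7 is a histone deacetylase, and the study used SIRT7-/- mice as a model of fatty liver disease that needs no special diet. For every mouse 3000 hepatocytes and 3000 nonparenchymal cells from a collagenase perfusion were mixed into 1 library, so cell proportions reflect the mixing and the recovery, not the organ.

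Long-chain fatty acids enter mitochondria as carnitine esters and are shortened there by beta-oxidation, while peroxisomes shorten the longest chains and the endoplasmic reticulum starts oxidation from the far end of the chain. In liver these steps are raised by fasting through PPAR-alpha, and the acetyl-CoA they yield feeds ketone bodies. Mitochondrial oxidation is usually described as stronger on the periportal side of the lobule, the side that receives blood, than around the central vein.

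The members fall into 4 roles. Cpt1a (ENSMUSG00000024900, chromosome 19:3322334-3385733, plus strand) makes the carnitine esters at the outer mitochondrial membrane and Cpt2 (ENSMUSG00000028607, chromosome 4:107903981-107923610, minus strand) reverses that step inside. Acadm (ENSMUSG00000062908, chromosome 3:153922357-153944632, minus strand) and Acadl (ENSMUSG00000026003, chromosome 1:66830839-66863277, minus strand) are the medium- and long-chain acyl-CoA dehydrogenases. Hadha (ENSMUSG00000025745, chromosome 5:30118304-30155162, minus strand) is the alpha subunit of the mitochondrial trifunctional protein. Ehhadh (ENSMUSG00000022853, chromosome 16:21761287-21787807, minus strand) is the bifunctional enzyme of the peroxisome. Cyp4a10 (ENSMUSG00000066072, chromosome 4:115518264-115533649, plus strand) and Cyp4a14 (ENSMUSG00000028715, chromosome 4:115486200-115496142, minus strand) are neighbouring cytochrome P450 genes of omega-hydroxylation. Their close paralogs Cyp4a31 and Cyp4a32 lie beside them, and reads common to these genes could have been split or dropped, so the values of Cyp4a10 and Cyp4a14 carry that uncertainty. Coordinates are of GRCm38, the mm10 build named for the files.

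Promoter windows were read to show where the binding half-site of nuclear receptors occurs, since PPAR-alpha is the regulator that defines the set. RefSeq promoter windows on GRCm38.p6, from 250 bases before the start to 50 after it, were matched for 6 of the 8 members, and no window was matched for Cyp4a10 or Cyp4a14. The half-site AGGTCA, searched on both strands, was found in 2 of the 6, Cpt1a and Acadm, each as TGACCT on the gene's strand. It began 94 bases before the start of Cpt1a and at the second base of the Acadm window. Of all 32851 windows of this length 16.3% hold the half-site, and the spaced repeat AGGTCANAGGTCA was found in 13 windows, none of a member. The 250 bases before the start are given below, 5′ to 3′ on the gene's strand with the half-site in capitals, for Cpt1a at chr19:3323051-3323300 (plus strand) and Acadm at chr3:153944644-153944893 (minus strand).
Cpt1a: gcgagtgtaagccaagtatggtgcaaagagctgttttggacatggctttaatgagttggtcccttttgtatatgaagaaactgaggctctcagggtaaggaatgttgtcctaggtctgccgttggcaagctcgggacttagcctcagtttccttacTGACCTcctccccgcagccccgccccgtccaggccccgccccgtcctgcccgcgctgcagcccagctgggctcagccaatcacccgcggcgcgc
Acadm: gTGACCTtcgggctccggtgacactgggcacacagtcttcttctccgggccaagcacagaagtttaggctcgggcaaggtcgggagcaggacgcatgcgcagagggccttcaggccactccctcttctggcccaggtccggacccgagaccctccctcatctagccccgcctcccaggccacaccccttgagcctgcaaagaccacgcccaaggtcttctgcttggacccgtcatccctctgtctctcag

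Values below are mean counts per 10000 UMIs (CP10K), averaged over the cells of a class in each mouse, and the mouse is the replicate throughout. Each library held 552 to 5609 cells and 2511947 to 11069411 UMIs, and 13 cell barcodes occurred in more than 1 library. SIRT7 KO mouse 3 stood apart with the fewest cells and the deepest ones (552 cells, median 3875 UMIs against 1630 to 2199 in the other libraries). Sirt7 itself, the check of the labels, was lower in each SIRT7 KO mouse (0.0679 to 0.154 CP10K in hepatocyte-like cells) than in any WT mouse (0.376 to 0.923 CP10K), although reads of the gene remained. Clustering gave 2943 hepatocyte-like cells in 2 clusters, with all 14 of 14 hepatocyte markers detected in both. Cluster 2 held 1758 cells, and its 10 leading genes included hemoglobin genes beside Mup and Fabp1. Cluster 4 held 1185 cells and carried much more nuclear RNA: Malat1 and Neat1 summed to 341 to 658 CP10K there and to 0.669 to 27.3 CP10K in cluster 2. The hemoglobin and other erythroid genes came mostly from 1 library, with a sum in cluster 2 of 104 CP10K in WT mouse 1, 6.2 CP10K in SIRT7 KO mouse 1 and 0.0 to 0.273 CP10K in the other 4 mice. Since they lead that cluster, results are given for the joined set and for each cluster by number. Cluster 4 made up 17.4% to 45.0% of hepatocyte-like cells in 5 of the mice and 80.9% in SIRT7 KO mouse 3.

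In hepatocyte-like cells no member passed the test between genotypes, and the means of the 3 WT and 3 SIRT7 KO mice overlapped for all 8. The differences were tested with limma on log2(CP10K + 0.05) over 9850 genes, with Benjamini-Hochberg adjustment, and the count of 0 of 8 stands beside a background of 0.122% of all genes called. At an unadjusted p under 0.05, 742 genes and 1 member, Cyp4a10, lay below that level. The median log2 difference was 0.08 over the members and 0.16 over all genes tested.

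Cyp4a10 showed the widest gap of the set. Its level was 3.83, 3.85 and 1.88 CP10K in WT mice 1, 2 and 3, and 0.713, 0.433 and 3.78 CP10K in SIRT7 KO mice 1, 2 and 3. SIRT7 KO mice 1 and 2 thus lay under every WT mouse, while SIRT7 KO mouse 3 was at the level of the higher WT mice. The values rest on 514, 379 and 33 UMIs of the gene in the WT mice and on 105, 15 and 449 in the SIRT7 KO mice. Means were 3.19 ± 1.13 CP10K in WT and 1.64 ± 1.86 CP10K in SIRT7 KO (SD, n = 3 each, exact two-sided permutation test p = 0.2, where 0.1 is the smallest p that 3 against 3 allows). The log2 difference, SIRT7 KO over WT, was -1.46 (SE 0.62, 95% interval -2.77 to -0.14, limma adjusted p = 0.62). Without SIRT7 KO mouse 3 it was -2.34 (limma adjusted p = 0.071), so that library decided much of its size.

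Its neighbour Cyp4a14 did not follow the same order of mice. It stood at 6.02, 3.19 and 5.17 CP10K in WT mice 1, 2 and 3 and at 3.18, 4.22 and 12.5 CP10K in SIRT7 KO mice 1, 2 and 3. The highest value was that of SIRT7 KO mouse 3, and the other SIRT7 KO mice lay within or at the edge of the WT range. Group means were 4.79 ± 1.45 and 6.65 ± 5.12 CP10K (SD, n = 3 each, exact permutation p = 0.9), with a log2 difference of 0.25 (SE 0.52, interval -0.85 to 1.36, limma adjusted p = 0.96).

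**Figure D1:**
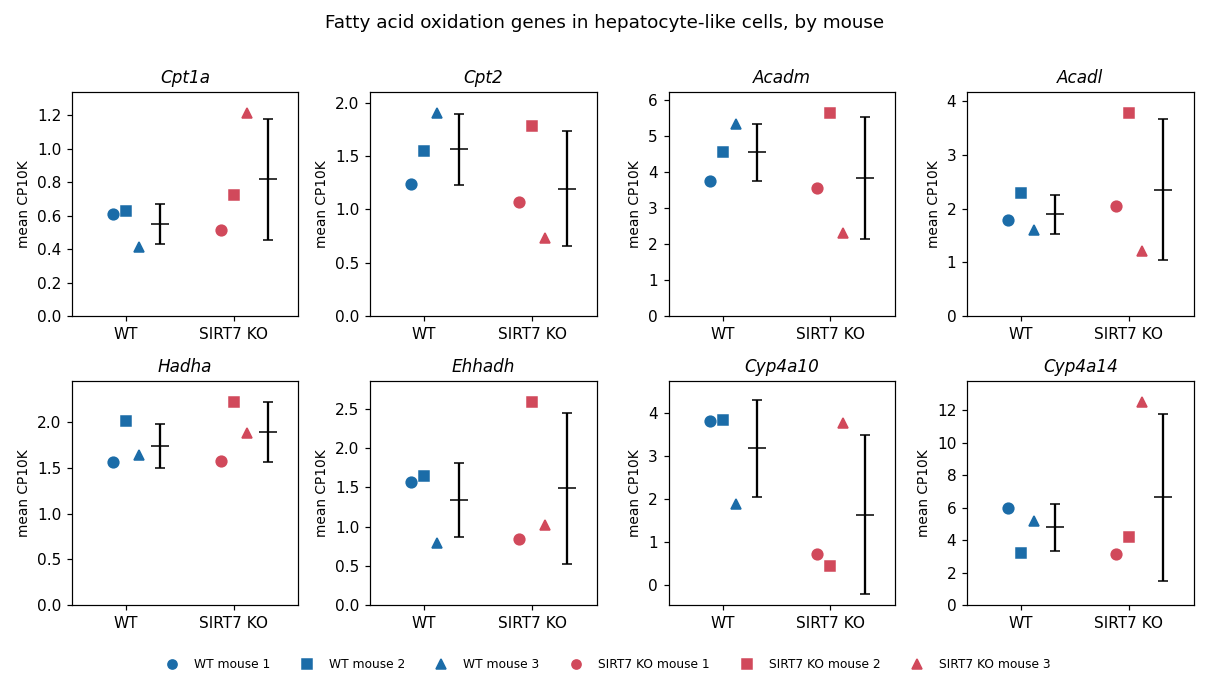
Mean CP10K of the 8 genes in hepatocyte-like cells (y axis) for each WT and SIRT7 KO mouse (points, shape by mouse number), with group mean and SD beside them (black). The groups overlap for every gene, and SIRT7 KO mouse 3 is the highest point for Cpt1a (1.22) and Cyp4a14 (12.5) and the lowest for Cpt2 (0.731) and Acadm (2.30).

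For the carnitine shuttle, Cpt1a measured 0.611, 0.627 and 0.416 CP10K in the WT mice and 0.514, 0.722 and 1.22 CP10K in the SIRT7 KO mice, mice 1, 2 and 3 in order. The log2 difference was 0.47 (SE 0.40, interval -0.38 to 1.32, limma adjusted p = 0.87). Cpt2 gave 1.24, 1.55 and 1.91 CP10K in WT and 1.07, 1.78 and 0.731 CP10K in SIRT7 KO, a log2 difference of -0.44 (SE 0.41, interval -1.31 to 0.43, limma adjusted p = 0.88). In both genes SIRT7 KO mouse 3 was the extreme sample, at the top for Cpt1a and at the bottom for Cpt2. For Cpt1a 2 SIRT7 KO mice lay above the WT range and 1 inside it, and for Cpt2 2 lay under it and 1 inside it.

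Among the dehydrogenases, Acadm ranged from 3.75 to 5.33 CP10K in WT and from 2.30 to 5.65 CP10K in SIRT7 KO, with a log2 difference of -0.32 (SE 0.44, limma adjusted p = 0.95). Acadl was measured at 1.79, 2.29 and 1.6 CP10K in WT and at 2.05, 3.78 and 1.22 CP10K in SIRT7 KO, a log2 difference of 0.17 (SE 0.44, limma adjusted p = 0.97). For both, SIRT7 KO mouse 2 gave the highest and SIRT7 KO mouse 3 the lowest value of the 6 mice. Hadha was measured at 1.56 to 2.01 CP10K in WT and 1.57 to 2.22 CP10K in SIRT7 KO, with a log2 difference of 0.11 (SE 0.37, interval -0.68 to 0.91, limma adjusted p = 0.98). The peroxisomal Ehhadh was at 1.57, 1.65 and 0.792 CP10K in WT and at 0.849, 2.59 and 1.02 CP10K in SIRT7 KO, a log2 difference of 0.04 (SE 0.46, interval -0.94 to 1.03, limma adjusted p = 0.99). Differences inside these intervals were not detectable with 3 mice a group.

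The share of cells with at least 1 UMI of a gene was compared after each cell was thinned to 1000 UMIs, which left out 239 WT and 380 SIRT7 KO hepatocyte-like cells that were shallower. Cyp4a10 was seen in 29.6%, 26.4% and 7.58% of cells in WT mice 1, 2 and 3 and in 7.18%, 1.03% and 30.2% in SIRT7 KO mice 1, 2 and 3. In SIRT7 KO mouse 2 this was 2 of 195 cells (95% Wilson interval 0.282% to 3.66%), against 0.883% of its T-like cells, a type not known to use the gene. In SIRT7 KO mouse 1 the T-like share was 4.48% and in WT mouse 3 it was 5.45%. Without thinning the shares were 44.9%, 42.0% and 19% in the WT mice and 9.81%, 5.32% and 67.5% in the SIRT7 KO mice, at median depths of 1233 to 1725 UMIs in WT and 1208 to 3291 UMIs in SIRT7 KO. Unthinned T-like shares were 23.9%, 19.2% and 8.63% in the WT mice and 4.34%, 1.99% and 38.7% in the SIRT7 KO mice, at median depths of 1078 to 2695 and 1140 to 3241 UMIs, lower than the hepatocyte-like share in each mouse. Cyp4a14 was seen in 37.1%, 25.7% and 30.3% of thinned WT cells and in 24.5%, 15.9% and 65.1% of thinned SIRT7 KO cells, always above the 1.96% to 22.6% of T-like cells of the same mouse. Hadha was the 1 of 8 members whose thinned shares did not overlap, with 13.9%, 17.5% and 13.6% in the WT mice and 18.3%, 17.9% and 17.6% in the SIRT7 KO mice (exact permutation p = 0.1, the smallest possible). Only the members were thinned, so no share over all genes stands beside that count. On all UMIs the shares of Hadha overlapped (exact permutation p = 0.7). Intervals cover counting error only.

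The same genes were distributed unequally between the hepatocyte-like clusters, in a manner that recurred from mouse to mouse. Acadl, Ehhadh, Acadm and Cpt2 were higher in cluster 2 in 6 of 6 mice, with a median log2 of cluster 2 over cluster 4 of 1.96, 1.39, 1.27 and 0.98. Hadha and Cyp4a10 were higher there in 5 of 6 mice (0.35 and 0.50). Cyp4a14 went the other way in 6 of 6 mice, with a median of -1.71, and Cpt1a in 5 of 6, with a median of -0.78. Cpt2, Ehhadh, Cyp4a10 and Cyp4a14 were among the genes that entered the clustering, so these are descriptions without a test. The nuclear RNA moved with the clusters in every mouse, and its part in these differences was not tested.

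**Figure D2:**
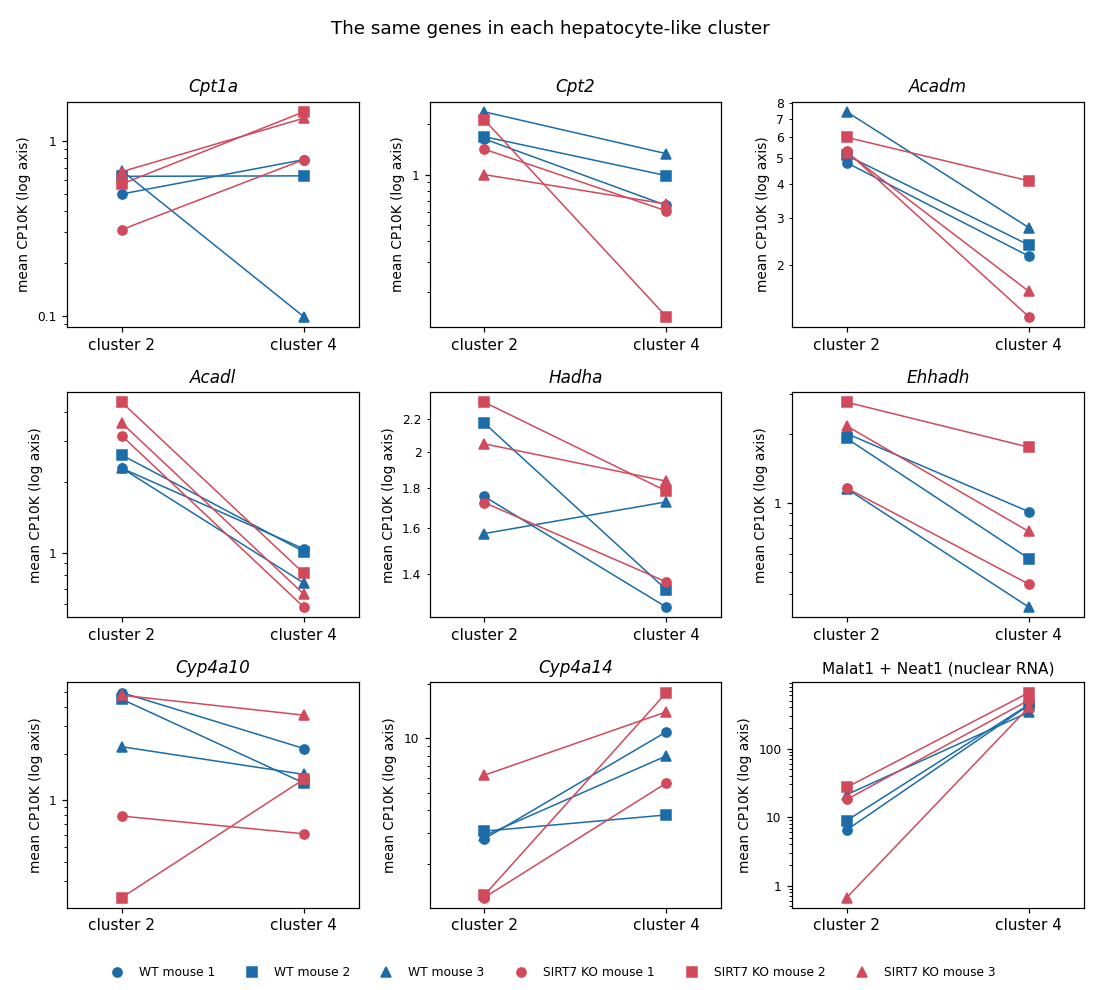
Mean CP10K (log axis) of each gene in hepatocyte-like clusters 2 and 4, with a line joining the values of 1 mouse, and of Malat1 plus Neat1 in the last panel. Lines for Acadl, Ehhadh, Acadm and Cpt2 fall from cluster 2 to cluster 4 in 6 of 6 mice, and those of Cyp4a14 and the nuclear RNA rise.

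Within the clusters, no member passed the test between genotypes either. In cluster 2, 0 of 8 members were called beside 0.444% of 8566 genes, and in cluster 4, 0 of 8 beside 0.243% of 10289 genes. Acadl in cluster 2 was 2.30, 2.62 and 2.30 CP10K in WT mice 1, 2 and 3 and 3.16, 4.40 and 3.59 CP10K in the SIRT7 KO mice. All SIRT7 KO mice lay above all WT mice there, with a log2 difference of 0.61 (SE 0.26, interval 0.06 to 1.15, limma adjusted p = 0.41, exact permutation p = 0.1). It was the only member of the 8 to separate in that cluster, where 7.8% of all genes separated with SIRT7 KO higher and 8.95% with SIRT7 KO lower. In cluster 4 Acadl ran from 0.740 to 1.04 CP10K in WT and from 0.584 to 0.814 CP10K in SIRT7 KO (log2 difference -0.41, limma adjusted p = 0.76).

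Cpt1a did not overlap between the genotypes in cluster 4, by a narrow margin. Its level there was 0.780, 0.631 and 0.0991 CP10K in WT mice 1, 2 and 3 and 0.781, 1.46 and 1.35 CP10K in SIRT7 KO mice 1, 2 and 3. The low value of WT mouse 3 came from 1 UMI in 45 cells. The log2 difference was 1.46 (SE 0.56, interval 0.29 to 2.63, limma adjusted p = 0.38, exact permutation p = 0.1), and 12.9% of all genes separated in the same direction in that cluster and 4.31% in the opposite one. In cluster 2 the Cpt1a difference had the opposite sign, -0.25 (SE 0.41, limma adjusted p = 0.85). In the joined set 10.1% of all genes separated with SIRT7 KO higher and 3.23% with SIRT7 KO lower, and no member did. Stress and immediate-early genes (6 genes, Fos and Jun among them) also separated in cluster 4, with sums of 17.5 to 31.0 CP10K in WT and 2.05 to 7.98 CP10K in SIRT7 KO, and their part in the difference of Cpt1a was not tested.

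Cpt2 in cluster 4 was at 0.655, 0.987 and 1.33 CP10K in WT mice 1, 2 and 3 and at 0.608, 0.142 and 0.668 CP10K in SIRT7 KO mice 1, 2 and 3. The groups overlapped by SIRT7 KO mouse 3 alone, and the value of SIRT7 KO mouse 2 rests on 2 UMIs. The log2 difference was -1.16 (SE 0.50, interval -2.20 to -0.12, limma adjusted p = 0.43), against -0.36 in cluster 2 and -0.44 in the joined set.

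The gap in Cyp4a10 was seen in cluster 2. There it measured 4.95, 4.49 and 2.22 CP10K in the WT mice and 0.792, 0.236 and 4.76 CP10K in the SIRT7 KO mice, a log2 difference of -1.82 (SE 1.18, limma adjusted p = 0.65). In cluster 4 the levels were 2.16, 1.29 and 1.47 CP10K in WT and 0.609, 1.37 and 3.54 CP10K in SIRT7 KO, a log2 difference of -0.14 (SE 0.50, limma adjusted p = 0.93). SIRT7 KO mouse 1 was the lowest of the 6 mice in cluster 4, SIRT7 KO mouse 2 the lowest in cluster 2. Whether the clusters differ in the effect was not tested.

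To place the genes along the lobule, each hepatocyte-like cell was scored by the share of pericentral marker UMIs among its pericentral and periportal marker UMIs, and the cells of each mouse were divided by score into 3 equal parts. The part with the highest scores was called the pericentral side and the part with the lowest the periportal side. The sides are relative to each mouse. The lowest score of the pericentral side ran from 0.265 in SIRT7 KO mouse 3 to 0.556 in WT mouse 2. The highest score of the periportal side ran from 0.1 to 0.381 in the same mice. Some scores thus fell on the pericentral side in 1 mouse and on the periportal side in another. When each of the 19 markers was set against a score made without it, 18 had a median difference in their own direction, from Glul (3.23) and Oat (2.78) on the pericentral to Sds (-3.28) and Cyp2f2 (-2.61) on the periportal side. Ass1 (median log2 pericentral over periportal 0.47), a urea cycle enzyme, went against its label, and Pigr and Pck1 differed little (-0.08 and -0.20). The sides also differed in makeup, since cluster 4 gave 3.0% to 55.0% of cells on the pericentral side and 33.0% to 97.3% on the periportal side.

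Across the 6 mice no member passed the test between the sides (0 of 8, beside 0.0% of 9025 genes called, although 1622 genes and 1 member lay under an unadjusted p of 0.05). Acadl had the largest difference. In WT mice 1, 2 and 3 it was at 2.0, 2.63 and 1.76 CP10K on the pericentral side and at 1.29, 2.41 and 2.10 CP10K on the periportal side. In SIRT7 KO mice 1, 2 and 3 the pericentral values were 2.99, 4.43 and 1.99 CP10K and the periportal ones 1.16, 2.36 and 0.881 CP10K. Acadl was thus higher on the pericentral side in 5 of 6 mice, with a mean log2 difference of 0.64 (SE 0.27, interval 0.04 to 1.24, limma adjusted p = 0.27). Acadm was higher there in 6 of 6 mice (0.52, SE 0.25, limma adjusted p = 0.30) and Cyp4a10 in 5 of 6 (0.44, SE 0.27, limma adjusted p = 0.37). The remaining differences were 0.25 for Hadha, 0.23 for Cpt2, 0.22 for Ehhadh, 0.04 for Cpt1a and -0.32 for Cyp4a14.

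These zone values depended on which markers made the score. Without the abundant markers Cyp2e1, Cyp2f2 and Ass1, Acadl gave 1.19 (limma adjusted p = 0.021) and Acadm 0.92 (limma adjusted p = 0.038), 2 of 8 members called in a setting that called 23.7% of 8779 genes. Without Pck1 the same genes gave 0.06 and -0.04. With sides taken inside cluster 2, where 5 mice had at least 20 cells a side, Acadl gave 0.09 (SE 0.28) and Acadm 0.14. Inside cluster 4, in 4 mice, they gave 0.23 and 0.02. The zone differences of Acadl and Acadm were thus smaller inside either cluster than over both, and the part of the cluster makeup in them was not tested.

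**Figure D3:**
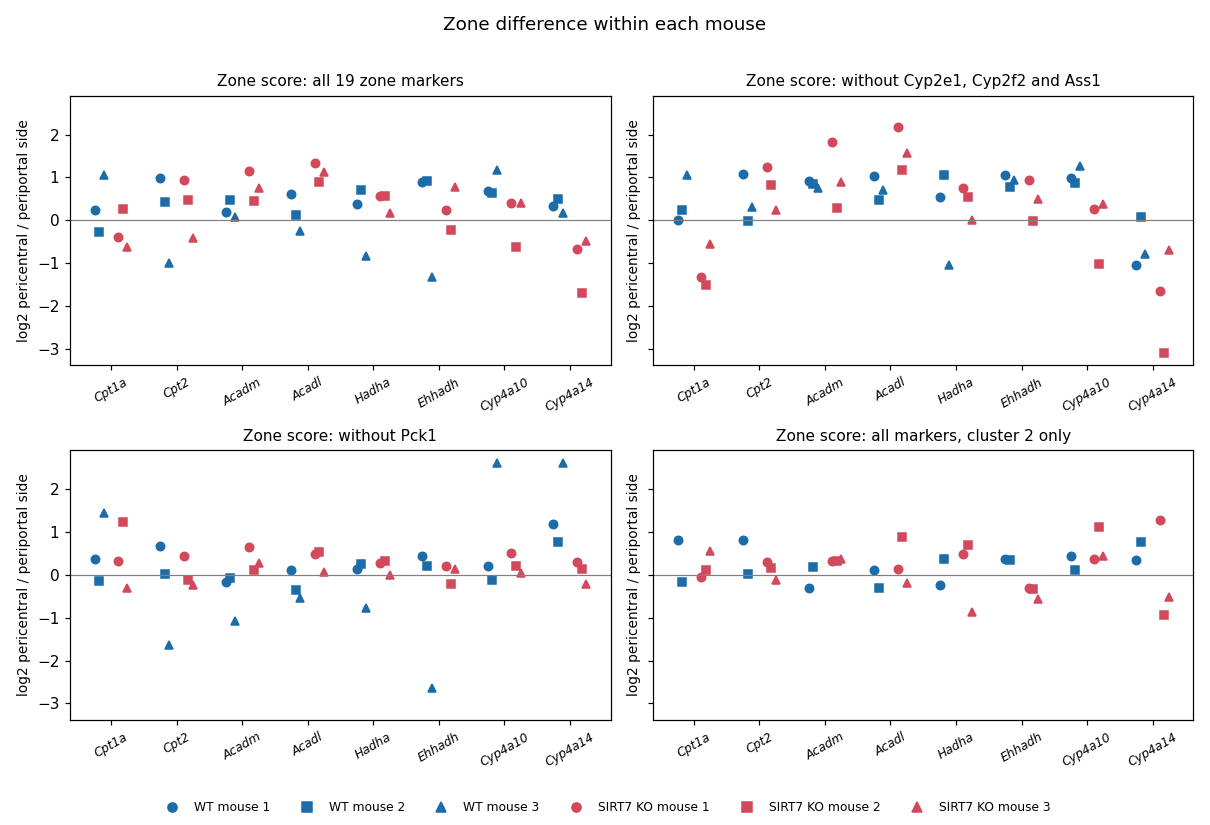
Log2 of pericentral over periportal level for each gene and mouse (points), under 4 ways of forming the sides, with 0 (grey line) meaning equal levels. With all markers Acadm lies above 0 in 6 of 6 mice, and Cyp4a14 lies above 0 in 3 WT mice and below it in 3 SIRT7 KO mice. Inside cluster 2, where 1 WT mouse had too few cells, Acadl lies at -0.31 to 0.89 (above 0 in 3 of 5 mice). Acadm lies there at -0.31 to 0.36 (above 0 in 4 of 5).

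The zone difference did not overlap between the genotypes for 3 of the 8 members, Acadl, Cyp4a10 and Cyp4a14 (exact permutation p = 0.1 each, the smallest possible). The share of all 9025 genes that separated in this way was not counted, so the members cannot be set against it. For Acadl it was 0.62, 0.13 and -0.25 on the log2 scale in WT mice 1, 2 and 3 and 1.33, 0.90 and 1.13 in the SIRT7 KO mice. For Cyp4a10 it was 0.69, 0.63 and 1.16 in WT and 0.41, -0.63 and 0.39 in SIRT7 KO. The SIRT7 KO mice thus lay above the WT mice for Acadl and under them for Cyp4a10, with limma adjusted p = 0.78 for both differences (0.95, SE 0.53, and -0.77, SE 0.53). Cyp4a14 was the one of these whose sign differed between the groups. It was 0.32, 0.49 and 0.16 on the log2 scale in WT mice 1, 2 and 3 and -0.67, -1.71 and -0.50 in SIRT7 KO mice 1, 2 and 3. The levels behind it were 6.59, 4.09 and 5.08 CP10K on the pericentral side of the WT mice and 5.26, 2.90 and 4.54 CP10K on their periportal side. In the SIRT7 KO mice they were 2.59, 2.40 and 9.74 CP10K pericentrally and 4.15, 7.93 and 13.8 CP10K periportally. Every WT mouse was higher on the pericentral side and every SIRT7 KO mouse on the periportal side, but the difference of -1.28 (SE 0.59, interval -2.60 to 0.04) missed the threshold (limma adjusted p = 0.78, exact permutation p = 0.1). No gene of 9025 was called in that comparison (0.0%), while 460 lay under an unadjusted p of 0.05. The opposite signs of Cyp4a14 depended on the score: without Pck1 the mean was 1.53 in WT and 0.08 in SIRT7 KO mice, without the abundant markers -0.59 and -1.81, inside cluster 2 0.56 and -0.05, and inside cluster 4 0.62 and 0.10. For Acadl the order of the genotypes turned inside cluster 4 (mean 0.67 in WT and -0.21 in SIRT7 KO mice) but not inside cluster 2 (-0.10 and 0.28). For Cyp4a10 it turned inside cluster 2 (0.27 and 0.65) and inside cluster 4 (-0.32 and 0.39).

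Between genotypes within a side, no member passed the test, where the sides were cut within each mouse and did not cover the same scores in all mice. On the pericentral side 0 of 8 were called beside 0.309% of 9392 genes, and on the periportal side 0 of 8 beside 0.16% of 10015 genes. Cyp4a10 on the pericentral side was at 4.66, 4.17 and 3.53 CP10K in WT mice 1, 2 and 3 and at 0.911, 0.292 and 4.20 CP10K in SIRT7 KO mice 1, 2 and 3. The WT mice lay close together, and the SIRT7 KO mice split into a low pair and 1 mouse at the WT level. The log2 difference was -1.89 (SE 0.77, interval -3.63 to -0.16, limma adjusted p = 0.73). Without SIRT7 KO mouse 3 it was -2.86 (limma adjusted p = 3.81e-08), in a setting where 2.31% of 9096 genes were called. That mouse was the 1 at the WT level, so leaving it out had to widen the difference and is no separate support. Over all left-out mice the difference was -2.86 to -1.04. On the periportal side Cyp4a10 gave -1.12 (SE 0.56, limma adjusted p = 0.58), and Cyp4a14 gave 0.90 (SE 0.55, limma adjusted p = 0.67). For the other 6 members limma adjusted p was 0.76 or more on either side.

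Outside hepatocytes, 8 classes of cells were named by their markers or leading genes, among them macrophage-like (3711 cells), T-like (2014 cells), dendritic-like (1501 cells), plasma B-like (441 cells) and endothelial-like (529 cells). The dendritic-like cluster also led with Prss34 and Mcpt8 of basophils. Hepatocyte-like cells held the highest mean over mice for 6 of the members. Cpt2 (1.38 ± 0.45 CP10K, SD, n = 6) and Cyp4a14 (5.72 ± 3.52 CP10K) stood clear there of the class next by mean, T-like cells at 0.465 ± 0.161 and endothelial-like cells at 0.927 ± 0.335 CP10K (n = 5). Cpt2 nevertheless reached 0.997 CP10K in endothelial-like cells of WT mouse 2 and 0.789 CP10K in B-like cells of SIRT7 KO mouse 1. Both lay above its lowest hepatocyte-like mouse (0.731 CP10K). Acadm (4.19 ± 1.24), Hadha (1.81 ± 0.27), Ehhadh (1.41 ± 0.68) and Cyp4a10 (2.41 ± 1.61 CP10K) were also highest in hepatocyte-like cells, but mice of the next class reached into the hepatocyte range. Plasma B-like cells had the lowest mean of all 8 genes. Levels were compared between classes, not between genes, and no test was made because the classes come from the same cells.

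For 2 members hepatocyte-like cells were not at the top. Acadl had a mean of 2.29 ± 1.41 CP10K in B-like cells (n = 3 mice) and of 2.12 ± 0.89 CP10K in hepatocyte-like cells (n = 6), which do not differ beyond their spread. In those B-like cells the abundant hepatocyte genes described next stood at 40.6% to 60.6% of their hepatocyte level, and Acadl at 1.02 to 4.20 times the level expected from them. Cpt1a was highest in macrophage-like cells, at 0.933, 0.824 and 0.874 CP10K in WT mice 1, 2 and 3 and at 0.828, 0.756 and 0.752 CP10K in SIRT7 KO mice 1, 2 and 3. These 6 values lay close together (mean 0.828 ± 0.0695 CP10K) and inside the wider hepatocyte range (0.685 ± 0.281 CP10K). The cluster led by S100a8 and S100a9 gave 0.460 ± 0.252 CP10K of Cpt1a (n = 3).

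**Figure D4:**
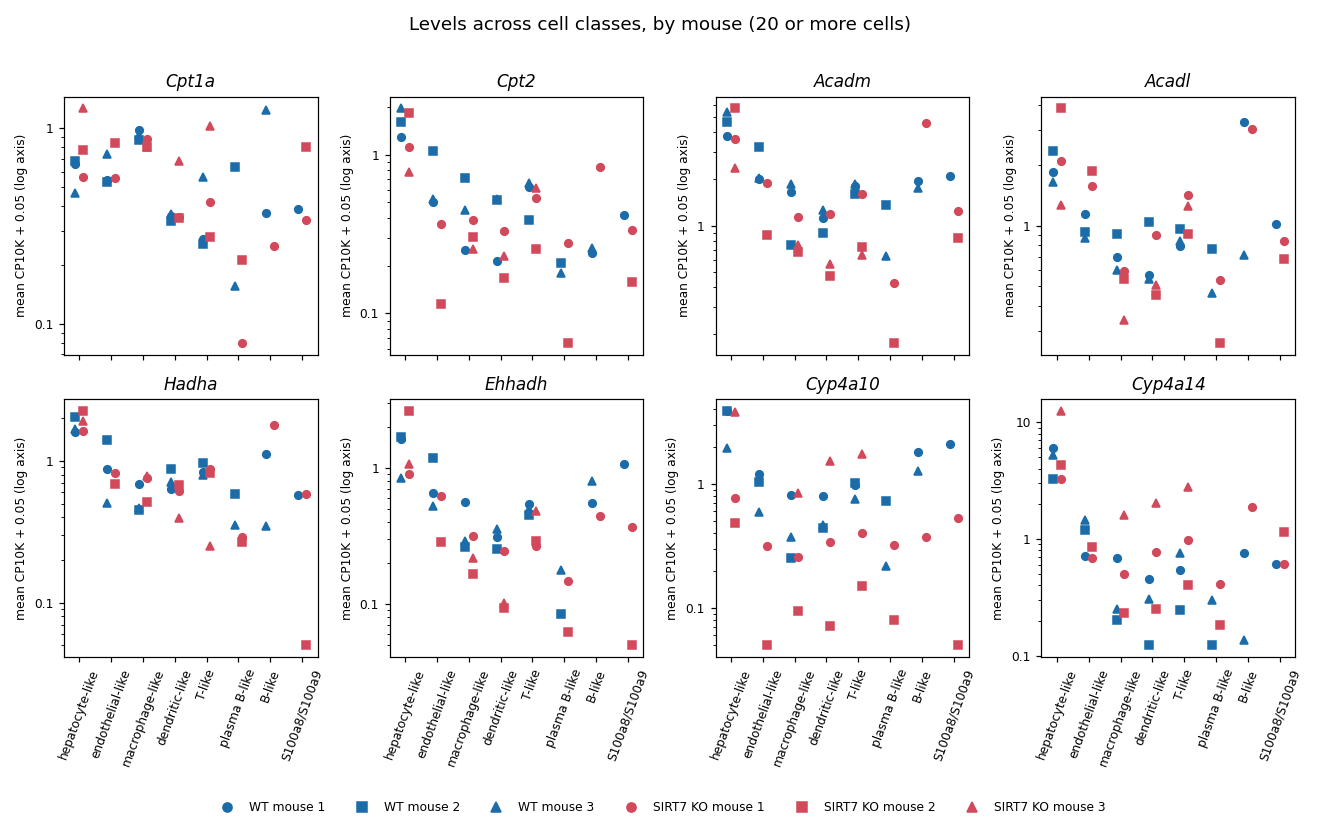
Mean CP10K + 0.05 (log axis) of each gene in 8 cell classes, 1 point per mouse with at least 20 cells. Cyp4a14 is set apart in hepatocyte-like cells, whereas Cpt2 reaches 0.997 CP10K in an endothelial-like sample, above its lowest hepatocyte-like value (0.731 CP10K). Cpt1a lies between 0.752 and 0.933 CP10K in macrophage-like cells of all 6 mice, within its hepatocyte range.

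Part of these levels can come from hepatocyte RNA free in the suspension, so each was set beside the level such RNA would give. The expected level was the level in the class of a list of 11 abundant hepatocyte genes, multiplied by the ratio of the gene to that list in hepatocyte-like cells of the same mouse. The list stood at 4.81% to 22.6% of its hepatocyte level in macrophage-like cells, at 9.54% to 37.4% in T-like cells and at 11.2% to 40% in endothelial-like cells. Cpt1a in macrophage-like cells exceeded the expected level 3.15 to 21.8 times (median 8.75) in 6 of 6 mice. Cyp4a14 was below the expected level in 6 of 6 mice in macrophage-like (0.259 to 0.896 of it), T-like (0.253 to 0.882) and dendritic-like cells (0.183 to 0.894). Cyp4a10 lay around it, at 0.315 to 2.14 in macrophage-like and 0.748 to 2.39 in T-like cells. Acadl exceeded it in every mouse and class, for example 1.29 to 3.39 times in T-like and 1.21 to 2.70 times in macrophage-like cells. All expected levels took the 2 hepatocyte-like clusters joined. Acadl was higher in cluster 2 and Cyp4a14 in cluster 4 (median log2 of cluster 2 over cluster 4 1.96 and -1.71). The ratios of these genes therefore depend on the cluster mix of the reference. Expected levels from either cluster alone were not computed.

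**Figure D5:**
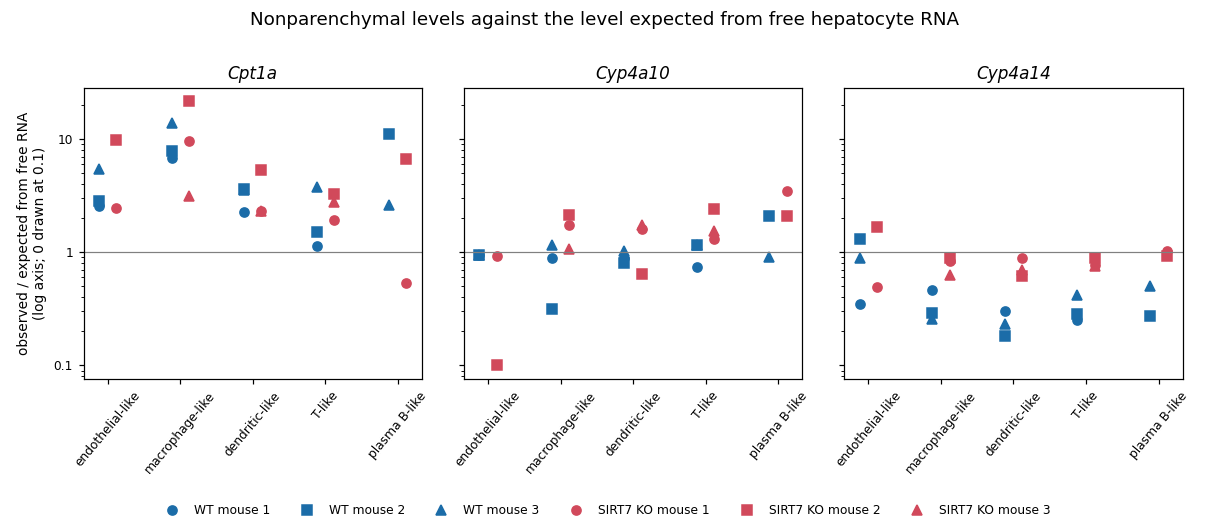
Ratio of the measured level to the level expected from free hepatocyte RNA (log axis, grey line at 1, a ratio of 0 drawn at the lowest tick) for Cpt1a, Cyp4a10 and Cyp4a14 in 5 nonparenchymal classes, 1 point per mouse. Macrophage-like Cpt1a lies at 3.15 to 21.8, Cyp4a14 at 0.896 or less in macrophage-like cells, and Cyp4a10 at 0.934 to 0.955 in the 4 endothelial-like samples that had UMIs.

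No member differed between genotypes past the threshold in these classes. The counts were 0 of 8 in macrophage-like cells (background 0.201% of 9944 genes), dendritic-like cells (0.0308% of 9731), T-like cells (0.12% of 10011), endothelial-like cells (0.197% of 10662, 5 mice) and plasma B-like cells (0.0781% of 7687, 4 mice). Macrophage-like Cpt1a gave a log2 difference of -0.16 (SE 0.23, interval -0.66 to 0.33, limma adjusted p = 0.84). T-like Acadm was at 1.76, 1.55 and 1.81 CP10K in WT mice 1, 2 and 3 and at 1.56, 0.677 and 0.593 CP10K in SIRT7 KO mice 1, 2 and 3 (log2 difference -0.94, SE 0.33, limma adjusted p = 0.54). Without SIRT7 KO mouse 1, the single one inside the WT range, it was -1.36 (limma adjusted p = 0.030), and leaving that mouse out had to widen the difference. That setting called 138 genes in all, against 12 with every mouse. The level of Acadm expected from free hepatocyte RNA in these T-like cells was 1.21, 0.991 and 1.73 CP10K in the WT mice and 1.33, 0.539 and 0.669 CP10K in the SIRT7 KO mice, and the measured level was 0.887 to 1.56 times that. The expected level was thus also lowest in SIRT7 KO mice 2 and 3, and its part in the difference was not tested. Plasma B-like Acadm was 1.32 and 0.589 CP10K in WT mice 2 and 3 and 0.380 and 0.125 CP10K in SIRT7 KO mice 1 and 2, with a log2 difference of -1.77 (SE 0.53, limma adjusted p = 0.47).

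Dendritic-like Ehhadh was at 0.264, 0.206 and 0.305 CP10K in WT mice 1, 2 and 3 and at 0.198, 0.0440 and 0.0523 CP10K in SIRT7 KO mice 1, 2 and 3. All SIRT7 KO mice lay under the WT mice, from 2 to 19 UMIs each, with a log2 difference of -1.19 (SE 0.46, limma adjusted p = 0.70). The share of all genes that separated in dendritic-like cells was not counted. In endothelial-like cells Cpt2 gave -1.66 (SE 0.62, limma adjusted p = 0.50), Acadm -0.87 (SE 0.37, limma adjusted p = 0.63) and Acadl 0.81 (SE 0.38, limma adjusted p = 0.68), in 3 WT and 2 SIRT7 KO mice.

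The closest to the threshold was Cyp4a10 in endothelial-like cells. It measured 1.14, 0.995 and 0.546 CP10K in WT mice 1, 2 and 3 from 16, 19 and 6 UMIs. SIRT7 KO mouse 1 gave 0.266 CP10K from 7 UMIs and SIRT7 KO mouse 2 had 0 UMIs in 57 cells, while SIRT7 KO mouse 3 had too few cells. The WT and SIRT7 KO mice did not overlap, and the fitted log2 difference was -2.85 (SE 0.66, limma adjusted p = 0.051). The share of all genes that separated in this class was not counted. With mice paired by their number as a replicate block it was -3.15 (limma adjusted p = 0.000468). In that fit WT mouse 3 had no partner, so the difference rested on the mice numbered 1 and 2. The pairing is not given by the labels and was taken from these same data, so this p-value is no separate support. The level expected from free hepatocyte RNA was 1.21, 1.04 and 0.571 CP10K in WT mice 1, 2 and 3. It was 0.285 and 0.0484 CP10K in SIRT7 KO mice 1 and 2. In the 4 mice with UMIs the measured level was 0.934 to 0.955 of that. The expected level was thus also lower in both SIRT7 KO mice, and its part in the difference was not tested. The fitted value of the mouse without UMIs depends on the pseudocount.

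Among themselves the members did not vary as 1 group. Over 12 profiles (the pericentral and the periportal side of each of the 6 mice) 13 of 28 pairs had a Pearson r above 0, with a median r of -0.06. Acadm and Acadl had the highest r (0.82), followed by Cpt2 with Acadm (0.74) and Hadha with Ehhadh (0.71). The lowest were Acadl and Acadm with Cyp4a14 (-0.66 and -0.63) and Cpt1a with Acadm (-0.57). Cyp4a10 and Cyp4a14, the genomic neighbours, gave 0.43. Profiles of 1 mouse share a library, and they differ in the share of cluster 4 cells. Of 3268 genes, those most like each member over the same profiles were Lactb2 and Dmd for Cpt1a (r 0.82 each), Mrpl40 and Ndufb11 for Cpt2 (0.89 and 0.87), Elob and Cdo1 for Acadm (0.96 and 0.95) and Blvrb and Psmb1 for Acadl (0.93 and 0.92). For the others they were Rnf11 and Tmem250-ps for Hadha (0.82 and 0.81), Mrpl15 and Selenbp1 for Ehhadh (0.91 and 0.89), Cd81 and Bcap31 for Cyp4a10 (0.96 and 0.94) and Rdh16 and Ly6e for Cyp4a14 (0.88 and 0.85).

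The wider pathway was read from a list of 55 further genes, of which 52 were in the table and 51 were tested in hepatocyte-like cells. None passed the threshold by limma (0 higher and 0 lower in SIRT7 KO, against the background of 0.122%), and 6 lay higher and 1 lower at an unadjusted p under 0.05. Their median log2 difference was 0.04, beside 0.16 over all genes. Among the roles reported here, medians were -0.29 for activation and transport (6 genes), -0.06 for mitochondrial oxidation (13), 0.01 for peroxisomal genes (13), 0.76 for omega oxidation (3) and 0.39 for regulators and other targets (12).

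Of the ketogenic genes, Bdh1, which interconverts the ketone bodies, gave a log2 difference of 0.25 (SE 0.41, limma adjusted p = 0.96), and the thiolase Acat1 gave -0.06 (SE 0.46, limma adjusted p = 0.99). Bdh1 was at 1.46 to 2.26 CP10K in WT and 1.64 to 3.21 CP10K in SIRT7 KO, and Acat1 at 3.95 to 5.36 CP10K in WT and 2.32 to 6.26 CP10K in SIRT7 KO, so the groups overlapped for both. Ppara, the receptor itself, was at 0.150 to 0.590 CP10K in WT and 0.428 to 0.931 CP10K in SIRT7 KO (0.95, SE 0.46, limma adjusted p = 0.68), and its coactivator Ppargc1a gave 0.50 (limma adjusted p = 0.87).

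The largest positive differences among list genes averaging 0.5 CP10K or more were those of Acacb (1.71), which makes the malonyl-CoA that inhibits Cpt1a, Pex11a (1.28), a peroxisome division factor, and the acyl-CoA thioesterase Acot1 (1.17). On the other side were the bile acid and fatty acid transport protein Slc27a5 (-1.08), the P450 Cyp4f14 (-0.99) and the fatty acid uptake receptor Cd36 (-0.93). Pex11a was at 0.592 to 0.769 CP10K in WT and 1.36 to 2.09 CP10K in SIRT7 KO, without overlap (limma adjusted p = 0.35). Acaa1b, a peroxisomal thiolase, was at 13.2 to 15.6 CP10K in WT and 25.2 to 32.3 CP10K in SIRT7 KO, also without overlap (1.04, SE 0.43, limma adjusted p = 0.62). Chosen after its values were seen, it was the 1 list gene called over all cells of cluster 2 (1.03, limma adjusted p = 0.017). In that setting 0.444% of 8566 genes were called. Reads of Acaa1b and its near-identical paralog Acaa1a may have been divided between them, and the values are uncertain to that extent. In all, 4 of the 51 genes (Acaa1b, Aldh3a2, Fgf21 and Pex11a) lay higher in every SIRT7 KO mouse, against 10.1% of all genes, and 1, Acox2, lay lower, against 3.23%.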

How the data were processed

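Single cells of 3 WT and 3 SIRT7 KO livers were measured with the 10x Genomics 3' assay. Per the labels, reads were processed with Cell Ranger 6.0.0 against mm10. The deposited table holds natural log values, ln(CP10K + 1), of 11610 cells and 16623 genes, in which every cell has 500 genes or more and 5.01% mitochondrial UMIs or less. These were returned to CP10K and to UMIs, and 12961041 of 12961041 values above 0 came out whole within 0.02. No deposited cell annotation was used here. Cells were clustered and named from marker genes with scanpy 1.11.5 (Python 3.11.15). Doublets were not removed, because the caller marked only 46 cells (0.396%). Member values were averaged per mouse and class (at least 20 cells), log2(mean CP10K + 0.05) was fitted with limma 3.58.1 (trend, robust, R 4.3.3) over genes averaging 0.05 CP10K or more, and p-values were adjusted by Benjamini-Hochberg over all genes tested, with a threshold of 0.05. Single values were compared with an exact two-sided permutation test. The mouse was the unit of every test, and the labels do not say whether mice were processed on separate days. Zone sides needed at least 3 marker UMIs in a cell. WT and SIRT7 KO mice of the same number had weak positive correlations of their deviations (0.11, 0.22 and 0.12 over 3251 genes), so the numbers were taken to pair the mice in an alternative fit. Mice of different numbers gave -0.19 to 0.03. Deviations were taken from each genotype's mean, so these correlations depend on each other and do not establish a pairing. The labels do not give this pairing. Fits were tested on simulated data before use. The rule for named genes took all 8 members, which were tested in every class with enough cells. Each is described in hepatocyte-like cells, and in other classes those with the larger differences, chosen after their values were seen. List genes are named if called, if ketogenic, if Ppara or Ppargc1a, or if among the 3 largest differences in either direction. For each member the 2 genes with the highest correlation are named. Aldh3a2, Fgf21, Acox2 and Acaa1b were named after their values were seen. Some ketogenic genes of the list are not reported here. The members and lists were chosen with earlier results of these data known. Other alternatives varied the pseudocount, the filter, the averaging, the cells, the zone markers and the mice.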

Additional observations from a re-analysis of the deposited data

Results flagged for a closer look

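Cyp4a14 moved in opposite directions between the sides of the lobule in the genotypes when all zone markers made the score: the mean log2 of pericentral over periportal level was 0.32 in WT mice (above 0 in 3 of 3) and -0.96 in SIRT7 KO mice (below 0 in 3 of 3). The difference of -1.28 did not pass the test (limma adjusted p = 0.78, 0.25 to 0.99 over the alternatives). It was -0.51 to -1.51 over all 21 alternatives, but the opposite signs did not hold in every one: without Pck1 the means were 1.53 in WT and 0.08 in SIRT7 KO mice, inside cluster 4 they were 0.62 and 0.10, and without the abundant markers -0.59 and -1.81. Cluster 4 cells, where Cyp4a14 was higher in 6 of 6 mice, made up a larger share of the periportal than of the pericentral side in each mouse, and the part of this in the difference was not tested.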

How the results depend on the processing

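Of the members' differences recomputed under other settings, 1535 kept their direction and side of the threshold or changed sign where the reported value was under 1 SE, 13 turned and 14 passed the threshold newly. Sign changes of reported values under 1 SE numbered 103. The number of members called between genotypes (0 of 8 in each class) became 1 without SIRT7 KO replicate 3 on the pericentral side (0 to 1 over left-out mice), 1 without SIRT7 KO replicate 1 in T-like cells (0 to 1) and, in endothelial-like cells, 1 with no filter on low genes, 1 with the replicate block and 0 to 3 over left-out mice (3 without SIRT7 KO replicate 1, 1 without WT replicate 3). In plasma B-like cells it became 1 with means of log values and 0 to 3 over left-out mice (3 without WT replicate 3). Where a left-out mouse leaves a single one in a group, that mouse is assumed to vary like the others. Calls over all genes rose as well without SIRT7 KO replicate 3 on the pericentral side (from 29 to 210) and without SIRT7 KO replicate 1 in T-like cells (from 12 to 138). They were also at their highest in endothelial-like cells without SIRT7 KO replicate 1 and in plasma B-like cells without WT replicate 3. The member counts in these settings stand beside that rise. In the zone comparison 2 members were called without the abundant markers. List genes called in hepatocyte-like cells rose from 0 to 1 in cluster 2 alone and to 1 with clusters weighted equally. Calls over all genes rose there too, from 12 to 38 and to 43. In endothelial-like cells without SIRT7 KO replicate 1 the called members were Cyp4a10 (-4.18), Cpt2 (-2.50) and Acadm (-1.43). In plasma B-like cells without WT replicate 3 they were Acadm, Cpt1a and Cyp4a10. The replicate block changed no other member's call.

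Apart from reported values under 1 SE, directions turned as follows. Cpt1a in hepatocyte-like cells gave -0.25 in cluster 2 alone. On the pericentral side Acadl gave -1.11 in cluster 4 alone and -0.060 with clusters weighted equally, and Cyp4a10 gave 0.078 in cluster 4 alone. On the periportal side Cyp4a14 gave -0.10 for cells chosen by marker share and -0.038 in cluster 2 alone. The genotype difference of the zone difference turned for Cyp4a10 in cluster 2 (0.38) and cluster 4 (0.71) and for Acadl in cluster 4 (-0.88). The zone difference turned for Cyp4a14 in cluster 2 (0.25), cluster 4 (0.36) and without Pck1 (0.81), and for Acadm without Pck1 (-0.043). The causes were not tested. Without thinning, the difference in the share of cells with a UMI moved for Cpt1a (8.35 percentage points) and Hadha (7.51 percentage points), neither with an exact permutation p under 0.7.

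Counts of all genes called varied from 0 to 43 in hepatocyte-like cells, 1 to 210 on the pericentral and 5 to 220 on the periportal side, 1 to 138 in macrophage-like, 0 to 131 in dendritic-like, 3 to 138 in T-like, 2 to 281 in endothelial-like and 0 to 913 in plasma B-like cells, 0 to 2081 between the sides and 0 to 0 for their genotype difference. Settings without cells with immune UMIs, without Pck1 and with sides inside 1 cluster were chosen after seeing the data. Removal of called doublets was not run, and in plasma B-like cells the block and a minimum of 40 cells, and voom for the zones, could not be fitted. Precision is limited by 3 mice a group, by 100 hepatocyte-like cells in WT mouse 3 and by low counts of Cpt1a (6 UMIs there).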
